A study of Mus musculus with 2 samples.

Results

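Histone-high cells were germinal center B cells caught with many transcripts of replication-dependent histone genes, and they were set against cells with many transcripts of genes that start S phase. Both classes came from the 8069 of 16633 deposited barcodes that held 500 genes or more, 3000 UMIs or more (unique molecular identifiers, each standing for 1 RNA molecule caught) and no more than 20% mitochondrial UMIs. Members were chosen by measured levels of the rule genes. Histone-high cells were the top 10% of each library by the summed UMIs per 10,000 of 6 genes, Hist1h1b, Hist1h1a, Hist1h2ae, Hist1h2ap, Hist1h2bj and Hist1h1d. Entry cells were the top 10% by the sum of 4 genes, Ccne1, Ccne2, Cdc6 and E2f1. The 94 cells that were in both were dropped, which left 713 histone-high cells and 713 entry cells, 429 of each in library 1 and 284 of each in library 2. The other 6549 kept cells served as a common background.

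The cells had been sorted as germinal center B cells from spleens of 8-week-old C57BL/6J mice, a common inbred strain, after immunization with sheep red blood cells (SRBC). They were profiled by 3′ droplet single-cell RNA sequencing (10x Genomics, version 3 kit) in 2 libraries of 1 group, so the comparison is between cell states within each library. Nothing in the labels says that the libraries came from separate mice. The p-values measure how far the class difference varies between these 2 libraries, a spread that may be technical. They do not measure how far the libraries differ in level.

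A cell commits to division when cyclin E, with CDK2, and the E2F factors switch on the genes of DNA replication. CDC6 and the origin recognition complex load the MCM helicase onto DNA before S phase, a step called licensing. Histones are made in bulk while DNA is copied, from messages that mostly end in a stem-loop bound by SLBP and carry no poly(A) tail, so a method that primes on poly(A) captures them in part. Genes of G2 and mitosis are switched on later, largely through promoters with a CHR element (TTTGAA) and CCAAT boxes. Germinal center B cells divide mainly in the dark zone and are selected in the light zone.

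The rule used the histone and entry sums, which are given here as a description only. The median histone-high cell held 32 histone UMIs in library 1 and 21 in library 2, against 4 and 3 in entry cells and 1 in the other cells of each library. Entry cells held a median of 5 and 6 entry-gene UMIs, and histone-high cells 1 in each library. UMIs of at least 2 entry genes were found in 404 and 273 entry cells, while 28 and 14 rested on at most 2 entry-gene UMIs. At the histone limit the lowest cell inside held 28.3331 per 10,000 and the highest outside 28.333 in library 1, and 17.9946 and 17.9494 in library 2. The limit thus lay at different levels in the libraries. Within 10% of the limit lay 306 and 159 cells. At the entry limit the lowest cells inside held 3.97298 and 4.05214 per 10,000, the highest outside 3.97219 and 4.05159, and 233 and 157 cells lay within 10% of it. Each class is therefore a range of a score rather than a cell type.

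Entry cells held more UMIs in all than histone-high cells in both libraries, with 4613037 and 3289648 UMIs in the summed histone-high cells, against 5491471 and 3984069 in as many entry cells, histone and rule genes left out. The median histone-high cell held 9142 UMIs in library 1 and 9347.5 in library 2, against 9378 and 11474 UMIs in entry cells and 8441.5 and 8789 in the other cells. The median mitochondrial share was 15.2% in histone-high cells of both libraries, against 13.9% and 13.4% in entry cells. Malat1, a long noncoding RNA kept in the nucleus, stood at 11096 and 8678 counts per 1000000 UMIs (CPM) in histone-high cells, 5039 and 4097 CPM in entry cells, and 7457 and 6175 CPM in the other cells. Its level was thus 2.17-fold higher in histone-high than in entry cells. The part of mitochondrial share, Malat1 share or depth in the results was not tested beyond drawing equal numbers of cells of both classes within 5 ranges of Malat1 share or of depth, and those values are given where they bear on a result. The drawing by Malat1 share was added after values were seen, and the drawing by depth was not planned either. No barcode of either class was shared by the libraries, against 6 shared among all kept cells.

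Both classes carried the markers of germinal center B cells. Of 11, 8 were higher and 1 lower in histone-high than in entry cells, against 21.4% of all genes higher and 23.3% lower. Against other cells 4 were higher and 1 lower in histone-high cells, and 1 was higher and 6 were lower in entry cells. All 11 markers of that list passed the filter on counts, which a gene can pass through 1 class alone. Their summed levels were 5631 and 5515 CPM in histone-high cells, 4730 and 4916 CPM in entry cells, and 5336 and 5490 CPM in the other cells. Genes of the replication fork that the rule did not use were then read in both classes against the other cells. Of 35 replisome genes tested, 26 were higher and 1 lower in histone-high than in other cells, and 33 were higher and 1 lower in entry cells. Clspn, which holds the fork and its checkpoint kinase together, stood at 274 and 262 CPM in histone-high cells, 259 and 249 CPM in entry cells, and 113 and 112 CPM in other cells. Clspn belongs to the replication checkpoint list, of which 7 of 15 were higher and 1 lower in histone-high than in other cells. Of 59 genes of G2 and mitosis, 51 were higher and 4 lower in histone-high than in other cells, so the class also carried transcripts of genes known for the phases after S. These counts therefore cannot tell S phase from G2, and the S phase label rests on the rule genes. Against a background of 24.0% of genes called higher and 24.3% called lower in histone-high cells, and 14.9% higher and 13.8% lower in entry cells, the replisome counts of both classes were high. In entry cells the mitotic list had 3 genes higher and 47 lower. Clspn was chosen after its values were seen.

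Histone-high and entry cells differed in much of the transcriptome. Counts were summed over the cells of each class in each library, without the 10 rule genes and without any gene named Hist, and edgeR tested the class with library as a block. Of 9475 genes tested, 2030 (21.4%) were called higher and 2205 (23.3%) lower in histone-high cells at an adjusted p below 0.05, or 44.7% in all. With a fold of at least 1.5 as well, 837 genes (8.83%) were higher and 898 (9.48%) lower, or 18.3%. The median log2 fold change over all genes was -0.0035. The list counts below are to be read against the shares of 21.4% higher and 23.3% lower. Those with equal Malat1 shares stand beside 707 genes called higher and 463 lower in that setting. The number of genes tested there is not given here, so list counts in that setting have no share beside them and are a description only. With 4 sums and 1 residual degree of freedom these counts rest on a spread shared across genes, and without the library term 1459 genes were called, and 1332 by DESeq2.

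**Figure D1:**
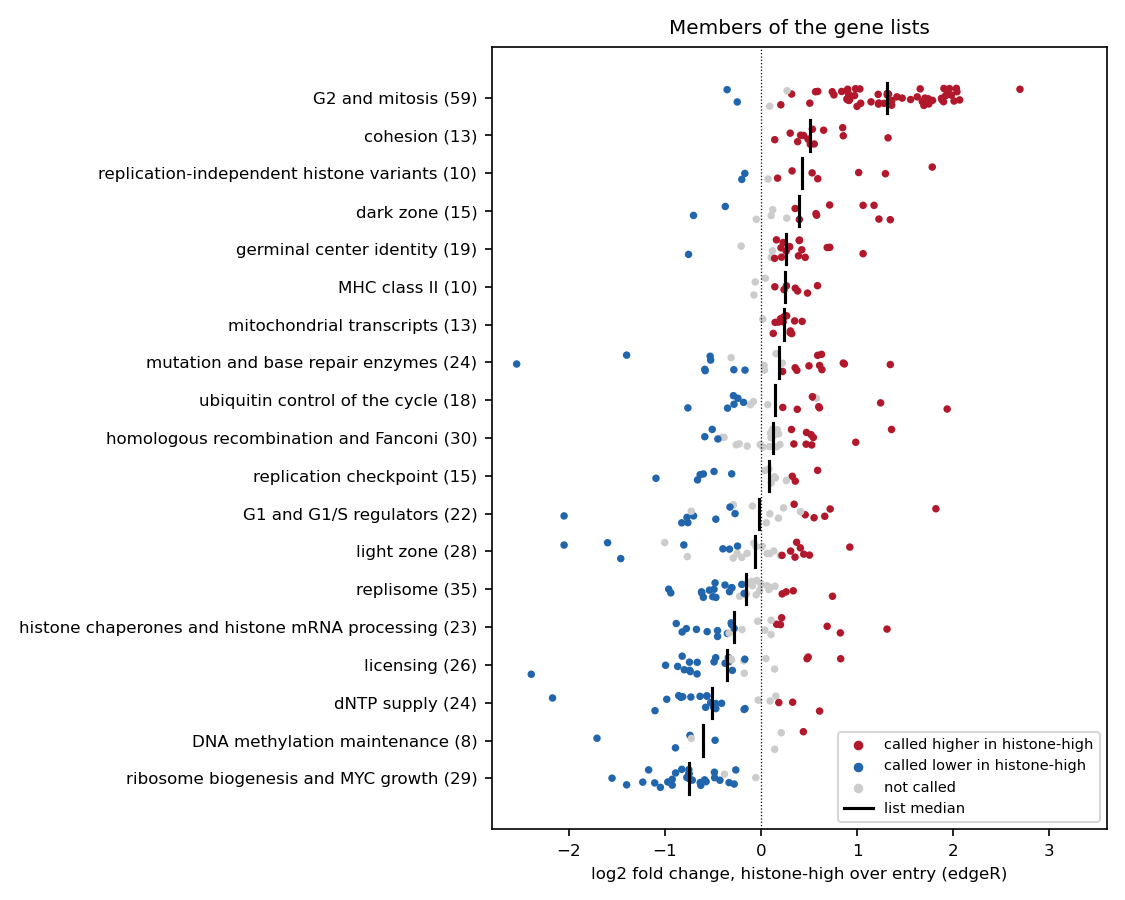
The log2 fold change of histone-high over entry cells for each tested member of 19 gene lists, with the number tested in brackets, the call by color and the list median as a bar. The G2 and mitosis list sits far to the right (median 1.31) and the ribosome biogenesis and MYC growth list to the left (median -0.75).

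Genes of G2 and mitosis were higher in histone-high than in entry cells almost without exception. Of 59 tested, 55 were called higher and 2 lower, with a median log2 fold change of 1.31, against 21.4% and 23.3% of all genes. Cenpf, a kinetochore protein that gathers through G2, had the highest fold of the list. It stood at 473 and 445 CPM in histone-high cells, 74.8 and 67.0 CPM in entry cells, and 335 and 335 CPM in other cells. The histone-high values lay above both others in each library, and the fold over entry cells was 6.47 (log2 2.69 ± 0.06 SE, adjusted p = 3.55e-44). Kif11, the motor that pushes spindle poles apart, stood at 353 and 313 CPM in histone-high cells, 86.1 and 76.3 CPM in entry cells and 129 and 123 CPM in other cells. Its fold over entry cells was 4.11 (adjusted p = 7.36e-37). Aurka, the kinase of centrosome maturation, differed 4.19-fold, Gtse1 by 2.03 on the log2 scale and Prc1, which bundles the central spindle, 4.02-fold.

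The most abundant proliferation genes followed the same order. Mki67, which coats mitotic chromosomes and is the usual proliferation marker, stood at 3096 and 2823 CPM in histone-high cells, against 1264 and 1125 CPM in entry cells and 1327 and 1210 CPM in other cells. Top2a, which untangles replicated DNA, stood at 1718 and 1523 CPM in histone-high cells, 605 and 569 CPM in entry cells and 639 and 606 CPM in other cells. In both genes the entry and other cells lay close together, and the difference between them did not pass the test (adjusted p = 0.36 for Mki67 and 0.40 for Top2a). Cdk1, the kinase that drives mitosis, was 2.33-fold higher in histone-high than in entry cells, and Ccna2, its partner from S phase on, 1.79-fold.

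The late mitotic cyclins were lower in histone-high than in other cells. Ccnb1, the cyclin that starts mitosis with CDK1, stood at 92.1 and 125 CPM in histone-high cells and 68.7 and 76.3 CPM in entry cells, but at 151 and 172 CPM in other cells. It was higher than in entry cells (log2 fold change 0.57 ± 0.08, adjusted p = 4.74e-08) and lower than in other cells (-0.56, adjusted p = 5.1e-13). Ccnb2 was lower in histone-high cells than in both, at -0.35 against entry cells and -0.67 against other cells, but with equal Malat1 shares it was higher than in entry cells by 0.59. Its call against entry cells was also lost with equal depth (-0.12, adjusted p = 0.246), with the top 20% of cells (-0.05, adjusted p = 0.399) and under 6 other alternatives, so its direction against entry cells depends on the processing. Cdc20, which triggers anaphase, was higher than in entry cells by 0.32 and lower than in other cells at -0.72. Mybl2, an E2F target of S phase, was the other list member lower than in entry cells, at -0.25, and Ccnb2, Mybl2 and Cdc20 were chosen after their values were seen. Cells in the top 10% of their library for a sum of 6 mitotic genes (Ccnb1, Ccnb2, Cdc20, Plk1, Cenpe and Cenpf) numbered 38 and 21 of the histone-high cells and 2 and 2 of the entry cells. Without them 4026 genes were called.

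Among genes of at least 20 CPM in either class, the largest positive change was that of Pif1, a helicase that resolves structured DNA. It stood at 46.0 and 33.1 CPM in histone-high cells, 5.46 and 3.77 CPM in entry cells and 28.2 and 27.4 CPM in other cells, a fold of 8.52 over entry cells (adjusted p = 4.73e-22). Ankle1, a nuclease of DNA bridges, and Troap, a spindle protein, had log2 fold changes of 2.38 and 2.35. Aspm, a spindle pole protein, and Nusap1, a spindle microtubule protein, differed by 2.20 and 2.06, and Sgol2a, which protects cohesion at centromeres, by 2.18. Gas2l3, Kif14 and Hyls1 had values of 2.16, 2.16 and 2.18. The 12 genes with the largest positive change lay between 2.06 and 3.09 on the log2 scale.

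**Figure D2:**
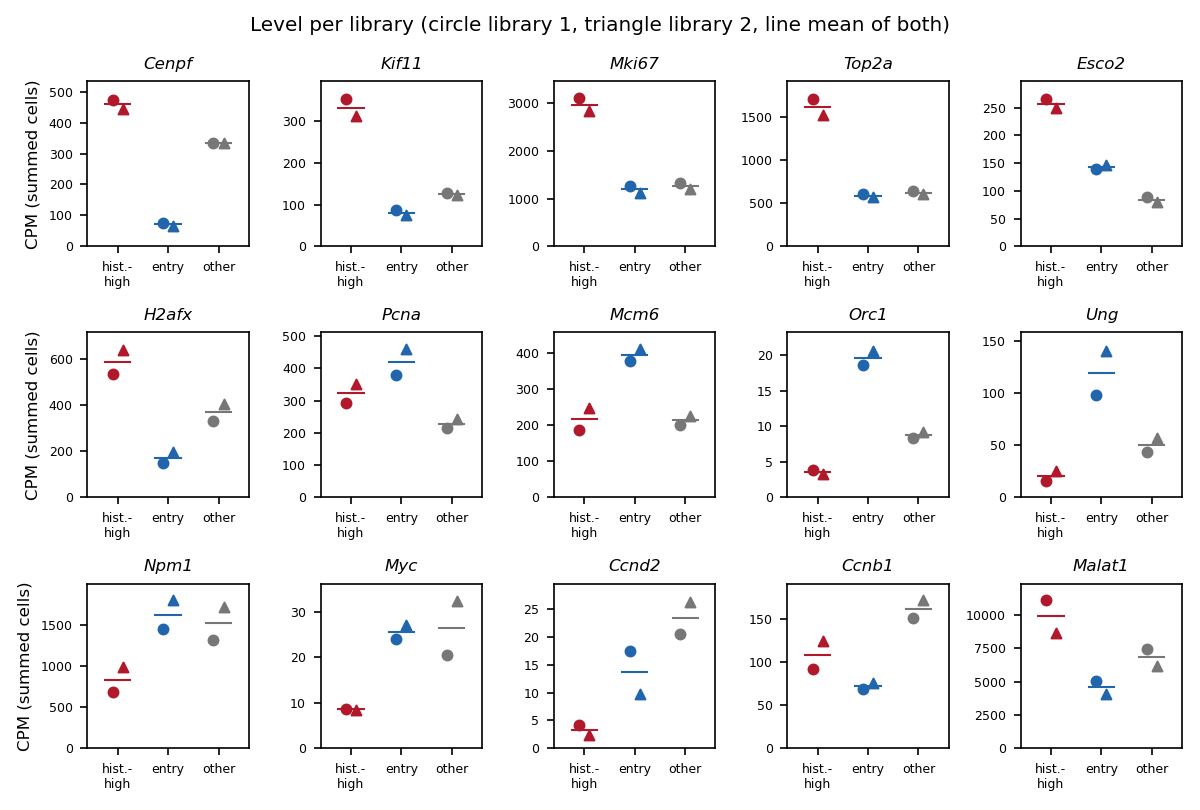
CPM in the summed cells of each class for 15 genes, with a circle for library 1, a triangle for library 2 and a line at their mean. Cenpf, Kif11, Mki67, Top2a, Esco2 and H2afx stand highest in histone-high cells, Pcna, Mcm6, Orc1 and Ung in entry cells, and Ccnb1 and Ccnd2 in other cells.

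Cohesin, the ring that holds sister chromatids together from S phase on, was higher in its list. All 13 members tested were called higher in histone-high than in entry cells, with a median of 0.51, though the smallest, Smc3, differed by only 0.14 (adjusted p = 0.036) and lost its call under 12 alternatives, among them the other scaling (adjusted p = 0.057) and DESeq2 (adjusted p = 0.396). Esco2, which acetylates cohesin at the replication fork, stood at 266 and 249 CPM in histone-high cells, 140 and 146 CPM in entry cells and 88.0 and 79.5 CPM in other cells. Its level was therefore raised in both classes, and more so in histone-high cells, by 0.86 over entry cells (adjusted p = 8.94e-19). Cdca5, or sororin, which locks cohesin after replication, differed 2.50-fold, and the ring subunits Rad21 and Smc1a by 0.85 and 0.65. When Malat1 shares were equal, 6 of 13 were called higher and none lower, with a median of 0.22. Smc3 was chosen after its values were seen.

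Most genes listed as replication-independent histone variants were higher in histone-high than in entry cells. Of 10 tested, 7 were higher and 2 lower. H2afx (chr9:44334694-44336077, plus strand, mm10), whose protein marks DNA breaks and whose gene makes both a tailless and a polyadenylated message, stood at 537 and 640 CPM in histone-high cells, 147 and 199 CPM in entry cells and 334 and 407 CPM in other cells. The classes did not overlap, and the fold was 3.44 over entry cells (adjusted p = 7.36e-37). The linker histones H1f0 and H1fx differed by 1.29 and 1.02, Cenpa, the centromeric H3, by 0.59 and H3f3b, which encodes H3.3, by 0.53. H2afz, the variant of promoter nucleosomes, was lower, at -0.20, and H3f3a, the other H3.3 gene, at -0.17. Both were higher when Malat1 shares were equal, by 0.61 and 0.22, and at a mitochondrial limit of 10%, by 0.14 (adjusted p = 0.00544) and 0.22 (adjusted p = 2.85e-06). The direction of H2afz and H3f3a thus depends on the processing. H3f3a was chosen after its values were seen.

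Licensing genes went the other way. Of 26 tested, 17 were lower and 3 higher in histone-high than in entry cells, with a median of -0.36. Orc1, the origin recognition subunit that is destroyed in S phase, stood at 3.90 and 3.34 CPM in histone-high cells, 18.6 and 20.6 CPM in entry cells and 8.28 and 9.20 CPM in other cells. It was below the other cells in one class and above them in the other, and the log2 fold change between the classes was -2.39 ± 0.24 (adjusted p = 7.11e-13). All 6 subunits of the MCM helicase were lower, Mcm4 at -0.99, Mcm6 at -0.87, Mcm2 at -0.82, Mcm3 at -0.74, Mcm7 at -0.37 and Mcm5 at -0.34. Mcm6 stood at 188 and 249 CPM in histone-high cells, 378 and 412 CPM in entry cells and 202 and 227 CPM in other cells, so that the histone-high level was close to that of the background. Cdt1, which loads MCM, differed by -0.66, and its inhibitor Gmnn, or geminin, by -0.17.

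The 3 licensing genes that were higher act later, in firing origins. Dbf4, the partner that activates the CDC7 kinase, stood at 131 and 136 CPM in histone-high cells, against 72.7 and 78.8 CPM in entry cells and 101 and 107 CPM in other cells. Cdc7 itself differed by 0.49 and Ticrr, which helps load the firing factors, by 0.48. Cdc7 and Ticrr were chosen after their values were seen. With equal Malat1 shares 10 licensing genes were lower and 1 higher, and Gmnn stood at 0.14 without a call (adjusted p = 0.25).

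The replisome was lower in part of its members. Of 35 genes, 16 were lower and 4 higher, with a median of -0.16. Pcna, the sliding clamp, stood at 293 and 353 CPM in histone-high cells, 380 and 461 CPM in entry cells and 215 and 242 CPM in other cells, so both classes lay above the background. It was lower in histone-high than in entry cells, at -0.38 on the log2 scale (adjusted p = 2.93e-08). Rpa2, a subunit of the protein that coats single-stranded DNA, differed by -0.94, Dscc1, of the clamp loader that serves cohesion, by -0.96 and the clamp loader subunit Rfc3 by -0.62. Chtf18, the partner of Dscc1 in that loader, was higher by 0.74. Equal Malat1 shares left 8 replisome genes lower and 2 higher, with Pcna at -0.17 without a call (adjusted p = 0.066).

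Enzymes that supply deoxynucleotides were mostly lower. Of 24 tested, 18 were lower and 3 higher, with a median of -0.51. Dctd, which turns dCMP into dUMP for thymidylate synthesis, stood at 2.17 and 1.52 CPM in histone-high cells, 8.38 and 9.04 CPM in entry cells and 6.42 and 8.17 CPM in other cells. Shmt1, a one-carbon enzyme, was 2.15-fold lower. Rrm2, the S phase subunit of ribonucleotide reductase, differed by -0.47, and Tyms, which makes thymidylate, stood at 116 and 148 CPM in histone-high cells against 117 and 153 CPM in entry cells and was not called (adjusted p = 0.755). Of the genes that were higher, Rrm2b, the p53-responsive reductase subunit, differed by 0.61, Rrm1 by 0.33 and Dck, a salvage kinase, by 0.18, all 3 chosen after their values were seen. Equal Malat1 shares left 3 genes of the list lower and 6 higher, with a median of 0.06, Tyms was higher by 0.25 and Rrm2 stood at 0.12 without a call (adjusted p = 0.308).

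Genes of histone chaperones and histone mRNA processing were mixed between the classes. Of 23 genes, 11 were lower and 6 higher in histone-high than in entry cells, with a median of -0.28, while against other cells 15 were higher and 3 lower in histone-high cells, with a median of 0.32, and 15 higher and none lower in entry cells, with a median of 0.28. Slbp, which binds the histone stem-loop, stood at 306 and 357 CPM in histone-high cells, 401 and 445 CPM in entry cells and 246 and 256 CPM in other cells. It was thus above the background in both classes and lower in histone-high than in entry cells (log2 -0.35 ± 0.05, adjusted p = 1.76e-07). The histone chaperones Nasp, Chaf1a and Asf1a differed by -0.56, -0.31 and -0.78, and Lsm10, of the particle that cuts histone messages, by -0.88. Hjurp, the chaperone of CENP-A, was higher by 0.83. When drawn to equal Malat1 shares, 5 of 22 were lower and 8 higher, with a median of -0.03, and Slbp was at -0.15 without a call (adjusted p = 0.124).

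Promoters were taken for the largest changes in each direction among the mitosis, licensing, replisome and dNTP lists. Sequences are shown for Cenpf, Aurka and Kif11, which were higher, and for Orc1, which was lower. They run 250 bases before to 50 bases after the gene start in RefSeq (GRCm38.p6), the start farthest upstream where several are listed, 5′ to 3′ on the gene's strand. Capitals mark matches, on either strand, to the CHR element (TTTGAA), the CCAAT box (CCAAT) and the E2F letters TTTCCCGC, TTTCGCGC, TTTGCCGC or TTTGGCGC, none of which overlap. Cenpf lies on the minus strand at chr1:189688037-189688336, Aurka on the minus strand at chr2:172370521-172370820, Kif11 on the plus strand at chr19:37376132-37376431 and Orc1 on the plus strand at chr4:108579204-108579503.
Cenpf: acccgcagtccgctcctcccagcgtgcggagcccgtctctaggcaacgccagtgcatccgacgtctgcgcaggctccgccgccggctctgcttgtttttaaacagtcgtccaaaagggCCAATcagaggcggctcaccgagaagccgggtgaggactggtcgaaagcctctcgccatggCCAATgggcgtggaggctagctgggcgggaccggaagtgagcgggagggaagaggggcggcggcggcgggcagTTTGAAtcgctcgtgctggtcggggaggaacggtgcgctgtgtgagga
Aurka: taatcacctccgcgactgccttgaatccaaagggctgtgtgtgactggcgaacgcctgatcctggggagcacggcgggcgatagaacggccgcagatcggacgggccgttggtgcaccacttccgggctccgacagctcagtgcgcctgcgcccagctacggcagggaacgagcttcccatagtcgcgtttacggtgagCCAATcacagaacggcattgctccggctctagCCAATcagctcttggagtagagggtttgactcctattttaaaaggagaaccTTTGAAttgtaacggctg
Kif11: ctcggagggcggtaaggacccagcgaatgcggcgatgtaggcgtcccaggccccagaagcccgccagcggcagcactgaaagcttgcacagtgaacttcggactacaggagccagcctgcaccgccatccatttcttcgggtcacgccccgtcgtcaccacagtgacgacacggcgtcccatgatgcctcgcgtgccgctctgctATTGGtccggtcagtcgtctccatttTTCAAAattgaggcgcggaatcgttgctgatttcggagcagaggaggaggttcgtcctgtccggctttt
Orc1: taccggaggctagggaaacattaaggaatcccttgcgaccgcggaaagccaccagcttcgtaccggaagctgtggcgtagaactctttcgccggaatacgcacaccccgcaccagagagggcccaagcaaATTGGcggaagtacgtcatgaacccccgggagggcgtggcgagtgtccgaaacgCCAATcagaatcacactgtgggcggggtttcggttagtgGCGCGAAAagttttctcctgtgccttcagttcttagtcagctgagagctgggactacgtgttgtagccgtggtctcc
In Cenpf, Aurka and Kif11 the CHR element began at positions 3, 33 and -19, counting the first base of the gene as 1 and the base before it as -1, and each had at least 1 CCAAT box upstream of it. In Orc1 the E2F letters began at position -27, with a pair of CCAAT boxes farther upstream and no CHR element. Dctd and Shmt1, the other lower genes taken, are not printed. Neither held E2F letters or a CHR element, and Shmt1 held 1 CCAAT box and Dctd none. A match is a description of these letters and not a site shown to be bound.

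Across the genes tested, 7480 of 9471 unique symbols matched a promoter. A CHR element was found in 33 of 47 promoters of the mitosis list (70.2%), in 5 of 19 of the licensing list (26.3%), in 2 of 29 of the replisome list (6.90%) and in 12.4% of all. A CCAAT box was found in 38 of 47 mitosis promoters (80.9%) and in 40.2% of all. It was also found in 13 of 19 licensing promoters (68.4%) and in 13 of 20 of the homologous recombination and Fanconi list (65%), so it was not particular to the mitosis list. E2F letters were found in 9 of 19 licensing promoters (47.4%), 8 of 29 replisome promoters (27.6%), 3 of 47 mitosis promoters (6.38%) and 4.67% of all. They were also found in 3 of 8 promoters of the cohesion list (37.5%), whose members were called higher in histone-high cells. Over every gene called at least 1.5-fold higher in histone-high cells, 21.5% held a CHR element and 3.30% the E2F letters, and over those lower 11.5% and 4.78%. The share with a CHR element was thus above that of all promoters among higher genes, while the share with E2F letters among lower genes was near it. None of 21 dNTP promoters held the E2F letters.

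Regulators of G1 and of S phase entry were mixed, with 6 of 22 higher and 8 lower, against 21.4% and 23.3% of all genes. Ccnd2, the D-type cyclin of selected light zone cells, stood at 4.12 and 2.43 CPM in histone-high cells, 17.5 and 9.79 CPM in entry cells and 20.5 and 26.2 CPM in other cells. It was lowest in histone-high cells in both libraries and differed from entry cells by -2.05 ± 0.27 (adjusted p = 2.19e-09). Ccnd3, the D-type cyclin that drives dark zone divisions, differed by -0.70, Cdk4 by -0.83 and the phosphatase Cdc25a by -0.76. Cdk4 stood at -0.024 with equal Malat1 shares (adjusted p = 0.909), and Cdc25a at -0.34 in thinned cells (adjusted p = 0.173), both without a call. Cdkn2d, an inhibitor of CDK4 and its kin, was higher, at 88.7 and 117 CPM in histone-high cells against 23.7 and 35.4 CPM in entry cells and 54.3 and 63.3 CPM in other cells. E2f7, a repressor of E2F targets, was raised in both classes, at 58.7 and 48.9 CPM in histone-high cells, 43.0 and 43.2 CPM in entry cells and 17.7 and 18.2 CPM in other cells, and was higher in histone-high than in entry cells by 0.34 (adjusted p = 0.00571). That call was lost with equal Malat1 shares (0.11, adjusted p = 0.696), equal depth (0.23, adjusted p = 0.0844), a mitochondrial limit of 10% (0.22, adjusted p = 0.431), DESeq2 and no library block. E2f2 differed by 0.46, E2f8 by 0.18 without a call (adjusted p = 0.074), and Cdkn1b by 0.23 without a call (adjusted p = 0.28).

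Checkpoint and repair genes had calls in both directions, against 21.4% of all genes higher and 23.3% lower. In the replication checkpoint list 3 of 15 were higher and 6 lower, and Chek1, the kinase that restrains origin firing, was lower, at -1.09, at 18.6 and 23.4 CPM in histone-high cells, 43.5 and 45.2 CPM in entry cells and 21.7 and 21.3 CPM in other cells. In the homologous recombination and Fanconi list 9 of 30 were higher and 3 lower than in entry cells, while 27 of 30 were higher than in other cells in histone-high cells and 25 of 30 in entry cells. Eme1, whose nuclease cuts joined DNA late in the cycle, was higher by 1.36 and Fancd2, the clamp of crosslink repair, by 0.99. Exo1, a resection nuclease, was lower, at -0.59. Drawn to equal Malat1 shares, 2 of these 30 genes were higher and 3 lower. Of 18 genes of ubiquitin control, 8 were higher and 6 lower. Ccnf, an F-box protein that peaks in G2, was 3.83-fold higher, Fzr1, the activator of the anaphase-promoting complex in G1, 2.37-fold higher, and Dtl, which targets CDT1 at the fork, was lower, at -0.76.

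Among genes of at least 20 CPM in either class, the largest negative change was that of Ung, the uracil-DNA glycosylase that removes uracil from DNA (chr5:114130386-114139323, plus strand, mm10). It stood at 15.8 and 25.2 CPM in histone-high cells, 98.2 and 140 CPM in entry cells and 43.5 and 57.1 CPM in other cells. The classes did not overlap, and the level in entry cells was 5.83-fold that in histone-high cells (log2 fold change -2.54 ± 0.11, adjusted p = 2.20e-30). Against other cells the same gene was lower, at -1.28 in histone-high cells and higher by 1.26 in entry cells. The list of mutation and base repair enzymes had 11 of 24 higher and 8 lower. Polh, the error-prone polymerase of A and T mutations, was higher by 1.34, Mbd4, another glycosylase, by 0.86 and Polq, a polymerase of end joining, by 0.87. Apex1, which cuts the site that UNG leaves, was lower, at -1.40. In cells of equal Malat1 share 4 genes of this list were higher and 4 lower.

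Partners of DNA methylation upkeep were lower with 4 of 8 tested, and 1 was higher. Cdca7, which brings the remodeler HELLS to DNA, stood at 55.5 and 62.0 CPM in histone-high cells, 197 and 183 CPM in entry cells and 110 and 105 CPM in other cells (log2 fold change between the classes -1.71 ± 0.08). Hells itself differed by -0.89 and Uhrf1, which reads half-methylated DNA, by -0.48. Dnmt1, the enzyme that copies methylation at the fork, was higher by 0.44, at 442 and 408 CPM in histone-high cells, 323 and 306 CPM in entry cells and 228 and 215 CPM in other cells.

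Growth genes had the lowest median of the lists. Of 29 genes of ribosome biogenesis and MYC growth, 27 were lower and none higher, with a median of -0.75. Myc (chr15:61985391-61990374, plus strand, mm10), the factor induced in selected cells that drives their growth, stood at 8.67 and 8.51 CPM in histone-high cells, 24.0 and 27.1 CPM in entry cells and 20.6 and 32.3 CPM in other cells, a log2 fold change of -1.55 ± 0.19 against entry cells (adjusted p = 1.92e-10). In cells thinned to 3000 UMIs, with far more entry cells tied at 1 UMI, Myc was at -0.72 without a call (adjusted p = 0.0819). Srm, the spermidine synthase, differed by -1.17, the nucleolar proteins Gnl3 and Rrp9 by -1.11 and -1.23, and Apex1, also in this list, by -1.40. Against other cells 26 of 29 were lower in histone-high cells and none in entry cells, of which 14 were higher. With equal Malat1 shares 5 of 29 were lower and 3 higher, with a median of -0.11, and Srm stood at 0.06 without a call. That draw also left fewer cells, and the part of the Malat1 share in the difference was not otherwise tested.

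Among other genes with large falls, Fabp5, a fatty acid carrier, stood at 4.34 and 10.9 CPM in histone-high cells, 30.8 and 34.1 CPM in entry cells and 26.2 and 35.0 CPM in other cells. C1qbp, a mitochondrial matrix protein, was lower, at -1.50, Ndufaf4, an assembly factor of respiratory complex I, at -1.65 and Gcsh, of the glycine cleavage system, at -1.65. Bag2, an HSP70 cochaperone, differed by -2.01, Zmynd19 by -2.03, Gnaz, a G protein subunit, by -1.93 and Cd3eap, a subunit of RNA polymerase I, by -1.77. Zmynd19 and Gnaz were above other cells in entry cells, by 1.24 and 1.05, and below them in histone-high cells, at -0.80 and -0.88.

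Light zone genes were mixed between the classes and low in both against other cells. Of 28 light zone genes, 8 were higher and 7 lower than in entry cells with a median of -0.06, near the shares of 21.4% and 23.3% of all genes. Against other cells 20 were lower in histone-high cells and 24 in entry cells. Batf, a factor induced by antigen and T cell help, stood at 9.97 and 10.9 CPM in histone-high cells, 27.5 and 37.1 CPM in entry cells and 40.3 and 68.0 CPM in other cells. Bcl2a1d, a survival gene with near-identical copies among which reads cannot be told apart with certainty, was lower, at -1.46. Cd83, a surface marker of the light zone, differed by -0.24 and Cd86, another, by 0.20 without a call (adjusted p = 0.0877), and Egr1, an early gene of receptor signaling, was higher by 0.92. In cells of equal Malat1 share 13 of 25 were lower and none higher.

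Of 15 dark zone genes, 9 were higher and 2 lower, with a median of 0.40, against 21.4% and 23.3% of all genes. The lowest was Ccnd3, named above with the G1 regulators, at -0.70. Against other cells 10 were higher and 2 lower in histone-high cells, and 2 were higher and 5 lower in entry cells. Bach2, a repressor of plasma cell fate, stood at 405 and 340 CPM in histone-high cells, 179 and 181 CPM in entry cells and 281 and 237 CPM in other cells. Otub2 was higher by 1.18, Tifa, an adaptor of NF-κB signaling, by 1.23 and Cxcr4, the receptor that holds cells in the dark zone, by 0.57. Tifa stood at 0.049 in cells thinned to 3000 UMIs (adjusted p = 0.968) and at 0.88 with the top 5% of cells (adjusted p = 0.0642), both without a call. The germinal center identity list had 15 of 19 higher and 1 lower, among them Bcl6, its master repressor, by 0.69 and Ikzf1, or Ikaros, by 0.72, while Myb, a factor of proliferating progenitors, was lower, at -0.75. With equal Malat1 shares 6 of 19 were higher and 5 lower. Of 10 MHC class II genes, 7 were higher and none lower, H2-Ob the most at 0.59, but with equal Malat1 shares none was higher and 4 were lower.

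A transcript gate gave lower light zone shares in histone-high than in entry cells of both libraries. Cells in which Cd83 or Cd86 but not Cxcr4 was detected made up 27.3% (exact 95% interval 23.1 to 31.8%) and 21.1% (16.5 to 26.3%) of histone-high cells, against 33.3% (28.9 to 38.0%) and 30.6% (25.3 to 36.4%) of entry cells and 34.7% and 36.4% of other cells. After each cell was thinned to 3000 UMIs the shares were 29.8% and 24.3% in histone-high cells, 31.0% and 28.5% in entry cells and 35.8% and 38.4% in other cells. Cells with Cxcr4 and neither light zone marker made up 19.6% and 18.7% of histone-high cells, 16.6% and 14.1% of entry cells and 14.9% and 13.7% of other cells. After thinning these were 18.2% and 16.5% of histone-high cells, 16.8% and 15.8% of entry cells and 15.6% and 15.1% of other cells. No cell type that lacks these genes was set apart in the sort, so the share that free RNA alone would give is not known. Among cells with at least 5 heavy chain UMIs of which at least 80% were IgG or IgM and IgD, IgG cells were 58.5% and 53.2% of histone-high cells, against 55.6% and 55.9% of entry cells, and after thinning they were 57.3% and 50.2% of histone-high cells, against 50.8% and 48.6% of entry cells. Unthinned, the isotype share differed in opposite directions in the libraries. These intervals cover counting error only, and with 2 libraries against 2 an exact two-sided permutation test cannot go below p = 0.333.

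Single cells showed how far the classes overlap. The median summed level of the mitosis list was 153 and 150 UMIs per 10,000 in histone-high cells, 60.1 and 61.0 in entry cells and 53.7 and 59.4 in other cells. In library 1, 416 of 429 histone-high cells (97.0%) lay above the upper quartile of entry cells, and in library 2, 272 of 284 (95.8%). The other cells spread widely, with quartiles of 18.9 and 120 in library 1, so entry cells had a middling and narrow mitotic level. Licensing and replisome genes together had medians of 77.6 and 82.4 per 10,000 in histone-high cells, 93.2 and 96.3 in entry cells and 55.6 and 58.0 in other cells. For licensing alone 69.2% and 65.8% of histone-high cells lay below the lower quartile of entry cells. The growth list had medians of 35.6 and 42.0 in histone-high cells, 47.8 and 55.3 in entry cells and 39.7 and 44.2 in other cells, and 53.8% and 49.3% of histone-high cells lay below the lower quartile of entry cells. The mitotic difference was therefore the one in which single cells separated most, and the growth difference the least of the 3.

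**Figure D3:**
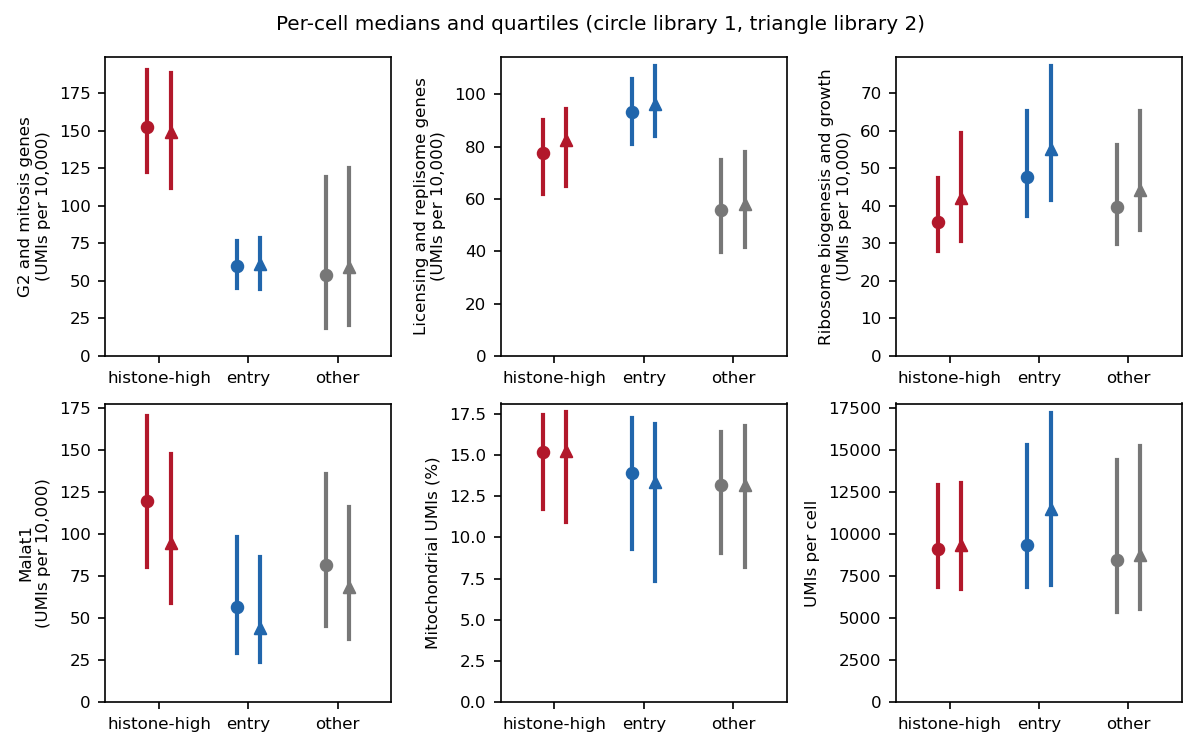
Medians over cells, with lines from the lower to the upper quartile, of 3 summed gene lists, Malat1, mitochondrial share and UMIs per cell in histone-high, entry and other cells (circle, library 1; triangle, library 2). The mitotic sums of histone-high cells lie above the quartile range of entry cells in both libraries, and Malat1 is highest in histone-high cells.

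Signs of RNA quality and markers of other cells were read from the same fit. Of 13 mitochondrial transcripts, 12 were called higher and none lower in histone-high cells, with a median of 0.24, and with equal Malat1 shares none was higher and 3 were lower. Of 10 dissociation stress genes, 4 were higher and 4 lower, with Fos and Fosb at 0.83 and 0.98 and Hsph1 at -0.59. Of 11 p53 targets, 5 were higher and 2 lower, among them Aen at -0.86 and Sesn2 at 0.98 (adjusted p = 0.0456). Sesn2 stood at 0.063 with the top 20% of cells (adjusted p = 0.877) and lost its call under 5 other alternatives. T cell markers summed to between 45.6 and 46.8 CPM in histone-high cells and between 46.4 and 53.7 CPM in entry cells, with Cd3e, Cd3g and Cd8a at 0 in both, and no marker was called of the 1 tested. Macrophage markers summed to at most 4.12 CPM in histone-high and 5.52 CPM in entry cells, with C1qa, C1qb and C1qc at 0, and neutrophil markers were all at 0. Natural killer and platelet markers summed to at most 0.61 CPM in each class, and none was tested. Plasmablast markers had 2 of 4 lower, Mzb1 at -0.47 and Jchain at -0.32, with sums of 909 and 1190 CPM in histone-high cells and 1228 and 1459 CPM in entry cells. Naive B cell markers had 1 of 4 higher, Ighd by 0.82, marginal zone markers 2 of 4 higher and 1 lower, and memory markers 1 higher and 1 lower of 2. The dendritic marker Bst2 and the erythroid marker Hbb-bt were lower, at -0.84 and -0.45, and the stromal marker Pecam1 was higher by 0.71.

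**Figure D4:**
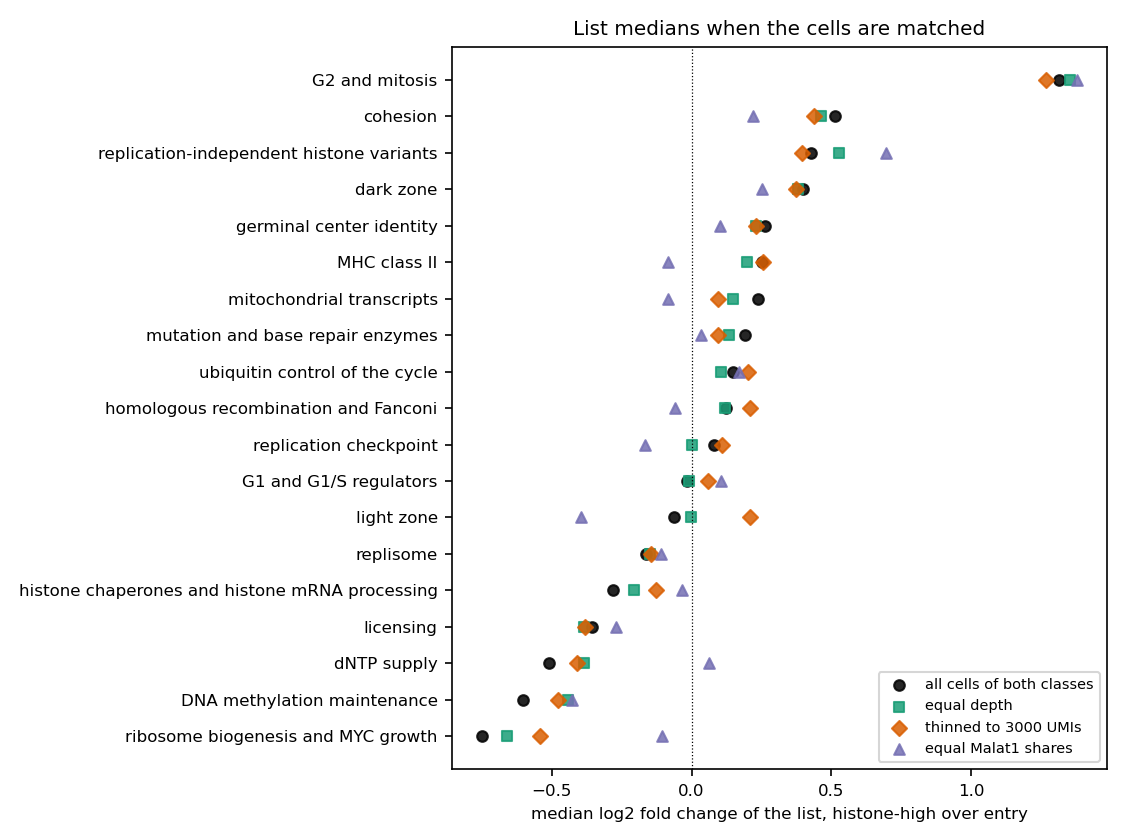
The median log2 fold change of each list, histone-high over entry, with all cells of both classes and with cells matched in depth, thinned to 3000 UMIs (entry cells called from at least 2 UMIs) or matched in Malat1 share. The G2 and mitosis median stays between 1.27 and 1.38, while the growth median runs from -0.75 with all cells to -0.11 with equal Malat1 shares.

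The mitotic difference was of similar size in the matched cells, and the part of depth or Malat1 share in it was not tested further. With equal Malat1 shares 56 of 59 mitosis genes were higher and none lower, with a median of 1.38, and with equal depth 56 were higher and 1 lower, with a median of 1.35. Over all genes 1170 were then called with equal Malat1 shares, of which 790 were called in the same direction with all cells and 109 in the opposite one. The drawing left 260 and 183 cells of each class in the libraries. Of the genes named here, 86 kept their call or their lack of one with equal Malat1 shares, among them Ung, Orc1, Cdca7, Myc, Batf, Chek1, Hells, Bach2, Esco2 and H2afx. Calls were lost for Apex1, C1qbp, Fabp5, Gcsh, Ccnd2, Dctd, Shmt1, Dnmt1, Bcl6 and Egr1 among others. With equal depth 3403 genes were called, 3260 of them in the same direction as with all cells.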

How the data were processed

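Single-cell RNA-seq counts of 2 libraries were used. The authors deposited whole UMI counts per gene and barcode, not normalized (30905 genes). Their headers name Cell Ranger 3.0.2, and the submitters' processing notes name mm10, while the annotation and cell calling are not given in the sources used here. Library 1 held 75121538 UMIs over 8765 barcodes and library 2 held 61874342 over 7868. Barcodes were filtered and classed as stated above, and the summed classes held 4613037 and 3289648 UMIs (histone-high) and 5491471 and 3984069 (entry). The 71 histone and rule genes were left out of totals and tests. edgeR 4.0.16 (quasi-likelihood, robust, TMM, filterByExpr, library as a block) tested the 4 sums, with Benjamini-Hochberg adjustment over all genes tested. A second fit with the sums of other cells was added after values were seen. CPM are plain shares, log2 fold changes come from the fit and SE is its standard error. The fit was tested on simulated sums, which did not include the choice of cells by a score. It recovered 94 of 100 genes with a log2 change of 1 and 60 of 100 with a change of 0.5, and called 4 unchanged genes. Both classes come from each library, so the library pairs the sums.

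Members and gene lists were chosen with earlier results of these data known. Genes were named by rule, in each direction the 12 largest changes with at least 20 CPM and the same sign in both libraries, the 5 largest called members of each list, and a fixed list of cycle and germinal center genes. Values of 2 genes are not reported here. Scrublet in scanpy 1.11.5 called 0 doublets in both libraries and so had not worked, and an alternative left out the top 6% of scores, which held 2.10% and 1.76% of histone-high cells, 6.29% and 6.69% of entry cells and 7.26% and 7.09% of other cells. Other alternatives changed the class width, the mitochondrial limit, the depth, the scaling, the filter, the tool (DESeq2 1.42.0) and the block, and matched or removed cells. Those with equal Malat1 shares, equal depth, mitotic cells left out and entry called from 2 UMIs were not planned beforehand. Coordinates are those of GENCODE M21 on mm10, counted from 1.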

Additional observations from a re-analysis of the deposited data

How the results depend on the processing

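The G2 and mitosis count stayed within 1.5 times under every alternative run. The total of 4235 genes called (2030 higher, 2205 lower, 1735 at a fold of at least 1.5) moved further under 7 of them. With the top 5% of cells it was 2355 (1136 and 1219), at a mitochondrial limit of 10% 2019 (1017, 1002 and 986), with cells thinned to 3000 UMIs 1487 (825, 662 and 741), and with entry then called from 2 UMIs 1351 (696, 655 and 714). With equal Malat1 shares it was 1170 (707, 463 and 538), with DESeq2 1332 (685, 647 and 752) and with no replicate block 1459 (784 and 675). Higher calls were 47.9% of all, but 60.4% with equal Malat1 shares.

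Equal Malat1 shares gave 5 growth genes lower of 27, 3 dNTP genes of 18, 10 licensing genes of 17, and 6 cohesion genes higher of 13. Thinning gave 8 and, with entry from 2 UMIs, 9 dNTP genes lower, 11 licensing genes lower and 8 and 8 cohesion genes higher. Without the library block, with which the sums are paired, 8 dNTP and 10 licensing genes were lower and 8 cohesion genes higher. Fewer cells or UMIs enter the matched and thinned fits, and the cause of the shifts was not tested in any setting.

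Log2 fold changes of single genes turned with equal Malat1 shares for Ccnb2 (0.59), Cd86 (-0.37), Gmnn (0.14), H2-Ob (-0.012), H2afz (0.61), H3f3a (0.22), Jchain (0.23), Mzb1 (0.20), Pecam1 (-0.11), Rrm2 (0.12), Srm (0.065) and Tyms (0.25). With entry from 2 UMIs they turned for Ccnb2 (0.10), Gmnn (0.030), H2afz (0.016) and Rrm2 (0.022), and with plain thinning for Gmnn (0.15), H2afz (0.14) and Rrm2 (0.24). At the top 20% they turned for Clspn (-0.11), H2afz (0.051) and H3f3a (0.061), at a mitochondrial limit of 10% for H2afz (0.14), H3f3a (0.22) and Jchain (0.0010), and with equal depth for H3f3a (0.025). Of the named genes, 28 kept their direction but lost their call without the block, 21 with DESeq2, 25 with plain thinning, 24 with entry from 2 UMIs and 28 with equal Malat1 shares. Some of the genes that turned lost their call as well, among them Gmnn, Rrm2 and Srm with equal Malat1 shares, and these are not in the counts. Plain thinning ended those of Cdc25a, Cdt1, Chaf1a, Chtf18, Dscc1, Egr1, Exo1, Fabp5, Gcsh, Hsph1, Ighd, Lsm10, Myb, Myc, Nasp, Polh, Shmt1, Slbp and Tifa, among others. Equal Malat1 shares ended those of Asf1a, Cdc7, Cdk4, Dck, E2f2, E2f7, Exo1, Hsph1, Ighd, Lsm10, Mcm7, Mybl2, Pcna, Rrp9, Slbp and Ticrr beside those given above. Counted in the same way, without genes that turned, a mitochondrial limit of 10% ended 11 calls, the top 5% of cells 9, equal depth 6 and the top 20% 5. Hbb-bt and Mybl2 each lost their call under 9 alternatives and Gmnn under 10. The cause was not tested.

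The share of dark zone gate cells, histone-high minus entry, turned to -1.96 percentage points at a mitochondrial limit of 10%. The IgG share, 0.11 points, turned to -0.50 at the top 5%, -1.06 at the top 20%, -0.65 at that limit and -2.67 without replicate 1, the libraries spanning -2.67 to 2.88. Leaving out a library left 1 sum in each class, so that no count of calls could be tested. Classes cut from few UMIs limit the precision, and thinned entry cells tied at 1 UMI (1155 and 828 cells).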
